A study of Homo sapiens with 48 samples.

Results

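Angiotensin II (AII) alone was compared with no stimulus after 6 h in human embryonic kidney (HEK293) cells made to express the type 1 angiotensin receptor (AT1R) stably. All groups used here were cells of 1 clone carrying the AT1R expression plasmid, selected with puromycin and grown with losartan, an AT1R antagonist, to keep residual AII in serum from activating the receptor. The cells were then moved to medium without serum. The AII 6 h group received 1 nM AII for 6 h, and the control 6 h group received nothing. Members were chosen by label: 5 of the 6 libraries labelled AII 6 h and 4 of the 6 labelled control 6 h were used, 9 of the 48 libraries of the series. The other libraries of the series were EGF (10 µg/L), AII + EGF and 24 h groups of the same cells. They enter below only where AII at 24 h or EGF at 6 h is set beside AII at 6 h. Because the response was read in 1 clone with a transfected receptor, it describes that clone.

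AT1R is a G protein-coupled receptor that couples mainly to Gq. Gq activates phospholipase C beta, which releases calcium from the endoplasmic reticulum and activates protein kinase C, and from there the MAP kinase cascade and transcription factors such as SRF, AP-1 and CREB are reached. The endoplasmic reticulum is also where secreted proteins fold, and it signals to the nucleus through the unfolded protein response, whose PERK branch shares the factor ATF4 with the response to amino acid shortage.

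The 9 libraries held 17783804 to 26510260 counts of RNA fragments assigned to genes, on average 20.7 M ± 3.53 under AII (SD, n = 5) and 21.03 M ± 1.53 in control (SD, n = 4), where M stands for 1e6 counts. Values per gene are given on the counts-per-million scale (CPM), scaled by normalisation factors. Control 6 h replicates 1 and 2 were left out because their counts differed from a library of another group by less than sampling of reads gives (chi-square per degree of freedom 0.397 against EGF 24 h replicate 2 and 0.505 against AII 24 h replicate 4). AII 6 h replicate 6 was left out because its label is in doubt. For ARC, an early-response gene, the factors were here taken over all control, AII and AII + EGF libraries at 6 h. Its level in AII 6 h replicate 6 was 87.1 CPM, against 6.27 to 9.25 CPM in the other AII 6 h libraries. The library labelled AII + EGF 6 h replicate 6 held 7.39 CPM and the other AII + EGF 6 h libraries 149 to 261 CPM. This last choice rests on expression values, so results with the library are given as well. AII 6 h replicates 1 and 2 were closer to each other (2.02) than the other pairs within the 2 groups, whose median over 16 pairs was 34.01. Their titles also stand in a run of titles in which no control library is left. Control 6 h replicate 6 likewise stands in a run in which no AII 6 h library is left. It was the control least like the others (33.2 to 68.4, against 16.3 to 30.6 for control pairs without it). With title runs as a block, the 6 h difference therefore rests on the runs that hold both groups, with 3 libraries of each. The labels do not say which libraries came from separate cultures, so the tests measure the spread between libraries, which may be in part technical.

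AII raised a small set of genes. Calls required 3 things: an adjusted p (Benjamini-Hochberg, from edgeR's quasi-likelihood test) under 0.01, a group mean above 5 CPM on the higher side, and a 1.5-fold difference or more. Of 16878 genes tested, 90 were called (0.533%), of which 89 were higher under AII (0.527%) and 1 was lower. These are levels in whole cultures, so that more responding cells and more RNA per cell cannot be told apart. All but the lower gene, a long non-coding RNA, code for proteins. Among the 89 higher genes the median log2 change was 0.82, against −0.02 over all genes tested. At least 2-fold changes were seen in 27 of them and at least 4-fold changes in 6. In all 90 the AII libraries lay on one side of the controls, which was so for 8.8% of all genes tested, and since the calls rest on the same libraries this is a description only. At an adjusted p under 0.05 without the other criteria 336 genes were higher and 84 lower. Adding the left-out libraries lowered the count. It was 42 with AII 6 h replicate 6 (40 of the 90 among them), 35 with control 6 h replicates 1 and 2 (30 shared) and 36 with all 12 labelled libraries (29 shared), and in these 3 fits no more than 1 gene was lower. Within the runs of titles that hold both groups, with 3 libraries of each, 93 genes were called, 71 of them among the 90.

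**Figure D1:**
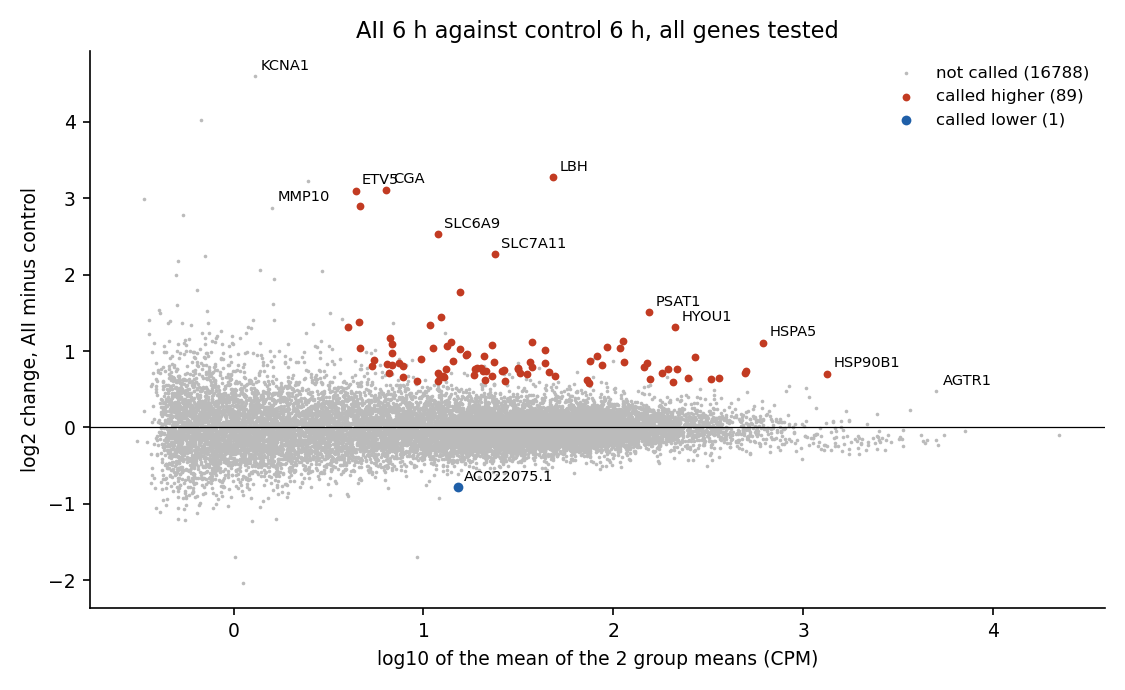
Each point is 1 of the 16878 genes tested, with the log10 of the mean of both group means (CPM) on the x axis and the log2 change (AII minus control) at 6 h on the y axis; the 89 genes called higher are red and the 1 called lower is blue. The called genes lie almost all above 0, KCNA1 and MMP10 lie high but below the abundance minimum, and AGTR1 stands at the abundant end with a change of 0.47.

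The largest change among called genes was that of LBH, a cofactor of transcription first known from limb bud and heart (chromosome 2, 30231534 to 30260028 on GRCh38). LBH stood at 90.5, 93.4, 91.4, 83.8 and 78.1 CPM in the AII libraries and at 10.4, 9.64, 9.55 and 6.63 CPM in the controls. This is a 9.68-fold rise (log2 3.28 ± 0.12 SE, edgeR adjusted p = 2.1e-08), with little spread within either group. CGA, the alpha subunit shared by chorionic gonadotropin, luteinizing, follicle-stimulating and thyroid-stimulating hormone (chromosome 6, 87085498 to 87095106), measured 8.41, 8.77, 13.6, 13.8 and 12.7 CPM under AII. In the controls it measured 1.13, 1.20, 0.844 and 2.05 CPM, so the groups were apart (log2 3.11 ± 0.25, edgeR adjusted p = 2.6e-05), with AII replicates 1 and 2 below the other 3. ETV5, a PEA3-type ETS factor induced by MAP kinase signalling (chromosome 3, 186046314 to 186109089), had 9.03, 8.72, 7.01, 9.27 and 5.36 CPM under AII and 0.528 to 1.19 CPM in the controls. Its log2 change was 3.10 ± 0.24 (edgeR adjusted p = 1.7e-05). OSTN, which encodes the secreted peptide osteocrin (chromosome 3, 191199241 to 191265615), had 10.0, 10.3, 6.5, 8.38 and 5.36 CPM under AII and 0.622 to 2.06 CPM in the controls, a log2 change of 2.89 ± 0.32 (edgeR adjusted p = 0.00032). OSTN and ETV5 are the members of this group whose call was lost when AII 6 h replicate 6 was added, where OSTN measured 1.83 CPM and ETV5 49.1 CPM. ETV5 also lost its call with control 6 h replicates 1 and 2, which held 5.75 and 1.16 CPM.

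**Figure D2:**
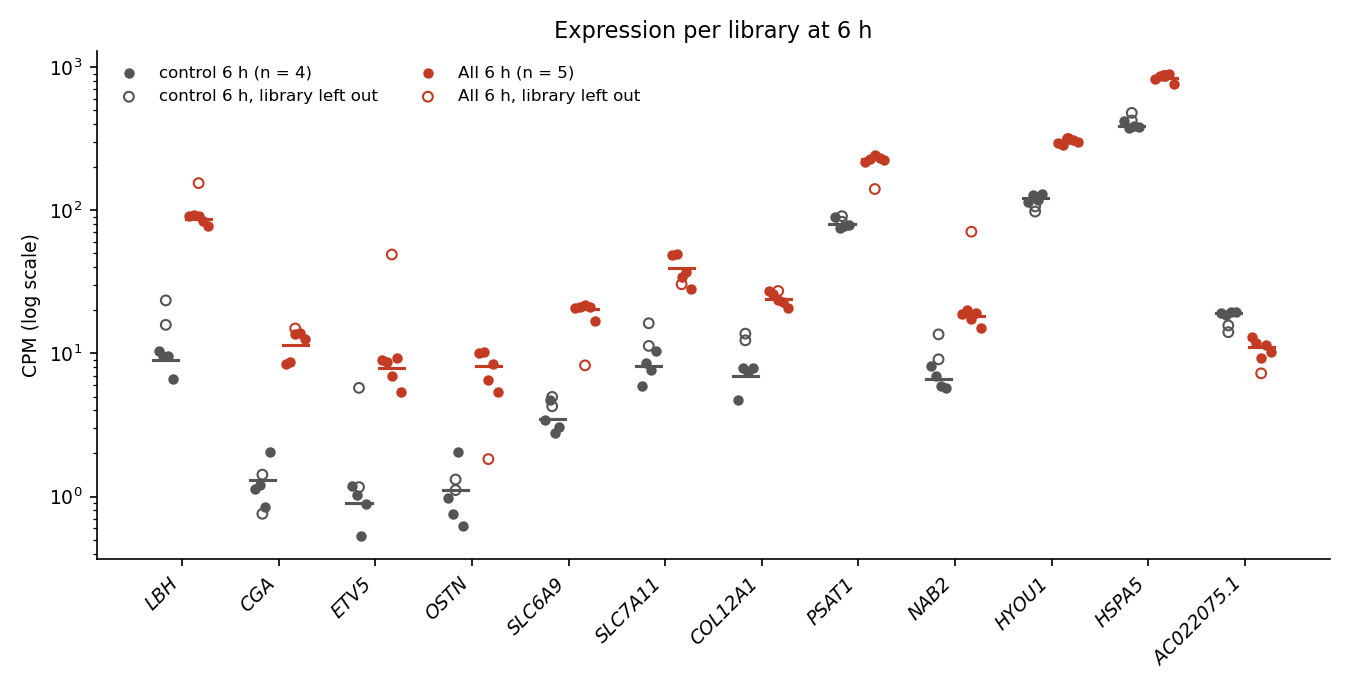
Points give the CPM (log axis) of 12 genes in each control 6 h library (grey, n = 4) and AII 6 h library (red, n = 5), lines the group means, and open circles the 3 libraries left out. The filled points of both groups do not overlap for any of the 12 genes; AC022075.1 is the one that is lower under AII, and the open red circle of AII 6 h replicate 6 departs most for ETV5, NAB2 and OSTN.

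The CGA promoter is shown because it is known for a tandem repeat of the cAMP response element, the site through which CREB acts. RefSeq promoter windows on GRCh38.p14, from 250 bases before the start of a transcript to 50 after it, could be matched to 70 of the 89 higher genes (114 windows, which overlap where starts of a gene are close) and to 10818 of the genes tested (15931 windows). ETV5 and SLC7A11 were among the unmatched. Capitals mark the cAMP response element TGACGTCA, searched on both strands.
CGA promoter, chr6:87095057-87095356, minus strand: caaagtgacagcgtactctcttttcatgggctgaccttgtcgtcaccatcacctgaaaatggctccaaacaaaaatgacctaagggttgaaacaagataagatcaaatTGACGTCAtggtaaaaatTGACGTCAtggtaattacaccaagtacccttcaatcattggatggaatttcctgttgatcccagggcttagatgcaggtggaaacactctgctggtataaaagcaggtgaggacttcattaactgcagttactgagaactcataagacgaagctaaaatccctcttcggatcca
The element began 142 and 124 bases before the start. It was found in 4.39% of the windows of higher genes (CGA, CREB3L2, EPHA2, KIF1A and LPP) and in 2.72% of those of all genes tested. The AP-1 letters TGANTCA were present in 7.89% against 5.22%, and the EGR letters GCGNGGGCG in 19.3% against 14.7%. These are counts of letters in a window and were not tested. Of the other CREB target genes examined, NR4A1, an orphan nuclear receptor, was the only further one called, at 12.5 to 16.8 CPM against 8.77 to 9.52 CPM (log2 0.71 ± 0.10, edgeR adjusted p = 0.0028). The list had 2 of 15 tested genes called (0.527% higher of all genes tested) and a median log2 change of 0.10. The call of NR4A1 was lost in 8 of 24 alternatives, among them leaving out control 6 h replicate 3, 4 or 5 or AII 6 h replicate 3, and the list count was 1 with either set of left-out libraries.

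Chaperones and folding enzymes of the endoplasmic reticulum were among the genes that rose. Of 19 genes of the unfolded protein response, 7 were called higher and 0 lower, against 0.527% of all genes tested, and their median log2 change was 0.46. HYOU1, a chaperone of the endoplasmic reticulum (chromosome 11, 119044188 to 119057205), measured 294, 287, 319, 312 and 301 CPM under AII and 114, 127, 117 and 131 CPM in the controls. Its rise was 2.48-fold with a narrow spread (log2 1.31 ± 0.08, edgeR adjusted p = 1.5e-06). HSPA5, the abundant chaperone BiP (chromosome 9, 125234853 to 125241343), had 822, 862, 861, 897 and 764 CPM under AII and 418, 374, 387 and 379.9 CPM in the controls (log2 1.11 ± 0.08, edgeR adjusted p = 1.5e-05). CRELD2, a secreted factor of the stressed reticulum, ranged from 39.4 to 66.4 CPM under AII, lowest in replicates 1 and 2, against 20.8 to 25.5 CPM. SDF2L1, a cofactor of BiP, rose by a log2 change of 1.08 ± 0.15. The disulfide isomerases PDIA4 (0.92 ± 0.08) and PDIA6 (0.64 ± 0.11) and the chaperone HSP90B1 (0.70 ± 0.11) completed the called members. MANF, a secreted factor of the reticulum, lay above the controls in all AII libraries but missed the threshold (0.73 ± 0.13, edgeR adjusted p = 0.013). The sensors and transcription factors of the same response were not called, with log2 changes of −0.01 for XBP1, 0.12 for ATF6 and 0.15 for ERN1. DNAJB9, a BiP cochaperone, and HERPUD1, which acts in degradation of misfolded proteins, had values of −0.18 and −0.39 and overlapped with the controls. DNAJB11, a BiP cochaperone outside the list, was called at 0.71 ± 0.08, as were SEC24D, a coat protein of vesicles leaving the reticulum (0.85 ± 0.08), and CREB3L2, a membrane-bound factor of the secretory pathway (0.62 ± 0.09). These 3 were singled out after their values were seen. The count of 7 was 8 by DESeq2, with all labelled libraries and with title runs as a block, and 5 with AII 6 h replicate 6.

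Promoters of these genes are shown because the site of the response is spelled out in them. Capitals mark matches to the endoplasmic reticulum stress response element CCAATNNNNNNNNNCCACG, on either strand, in the first 3 sequences, and to the unfolded protein response element TGACGTGG in that of HYOU1.
HSPA5 promoter, chr9:125241294-125241593, minus strand: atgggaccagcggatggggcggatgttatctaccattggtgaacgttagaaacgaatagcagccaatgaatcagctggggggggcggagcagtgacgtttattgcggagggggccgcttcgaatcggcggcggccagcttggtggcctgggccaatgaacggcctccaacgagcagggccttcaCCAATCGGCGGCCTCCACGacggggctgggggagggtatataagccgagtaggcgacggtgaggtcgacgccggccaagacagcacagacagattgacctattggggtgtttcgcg
HSP90B1 promoter, chr12:103930160-103930459, plus strand: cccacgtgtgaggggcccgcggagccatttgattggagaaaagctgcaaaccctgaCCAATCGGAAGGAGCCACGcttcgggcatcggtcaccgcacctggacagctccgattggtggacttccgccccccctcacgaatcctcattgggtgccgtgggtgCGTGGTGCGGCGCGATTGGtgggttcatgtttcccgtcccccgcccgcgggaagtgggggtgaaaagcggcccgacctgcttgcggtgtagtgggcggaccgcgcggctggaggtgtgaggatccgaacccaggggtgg
CRELD2 promoter, chr22:49918384-49918683, plus strand: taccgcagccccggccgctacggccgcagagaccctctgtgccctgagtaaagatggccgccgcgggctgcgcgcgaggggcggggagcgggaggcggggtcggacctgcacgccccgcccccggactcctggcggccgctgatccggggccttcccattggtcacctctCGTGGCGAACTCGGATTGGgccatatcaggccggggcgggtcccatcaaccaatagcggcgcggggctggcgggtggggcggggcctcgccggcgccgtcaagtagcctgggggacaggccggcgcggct
HYOU1 promoter, chr11:119057156-119057455, minus strand: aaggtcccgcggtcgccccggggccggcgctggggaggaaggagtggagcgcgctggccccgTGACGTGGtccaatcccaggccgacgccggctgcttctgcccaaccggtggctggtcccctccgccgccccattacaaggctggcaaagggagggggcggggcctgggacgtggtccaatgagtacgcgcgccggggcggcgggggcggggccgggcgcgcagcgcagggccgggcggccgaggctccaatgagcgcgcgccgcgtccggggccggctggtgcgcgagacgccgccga
The stress response element began 66 bases before the start in HSPA5, 194 and 89 bases before it in HSP90B1 and 80 bases before it in CRELD2. It was present in the windows of 4 of the 7 called genes, PDIA6 being the other, in 4.39% of the windows of all higher genes, and in 18 of the 15931 windows of all genes tested (0.113%). CALR, CANX and XBP1, members of the list that were not called, had it as well, so it does not mark the called members alone. These shares were not tested. Among the 7 called genes HYOU1 alone had the unfolded protein response element, which began 188 bases before the start. These letters were in 1.75% of the windows of all higher genes and in 0.847% of all windows, also not tested. They share their first 6 letters with the cAMP response element.

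Transporters and enzymes of amino acid supply were a further group. In the list of ATF4 targets for amino acid supply 7 of 33 tested genes were called higher and 0 lower, against 0.527% higher of all genes tested, with a median log2 change of 0.39. SLC6A9, the glycine transporter (chromosome 1, 43996483 to 44031462), had 20.7, 21.2, 21.8, 21.2 and 16.8 CPM under AII and 3.46, 4.71, 2.80 and 3.07 CPM in the controls (5.76-fold, edgeR adjusted p = 1.6e-06). SLC7A11, the cystine and glutamate antiporter (chromosome 4, 138164097 to 138242349), had 48.6, 49.3, 34.2, 36.9 and 28.3 CPM under AII against 5.93 to 10.4 CPM, a 4.82-fold rise with AII replicates 1 and 2 highest. PSAT1, an enzyme of serine synthesis (chromosome 9, 78297125 to 78330093), had 216, 228, 243, 233 and 225 CPM under AII against 75.0 to 90.1 CPM (log2 1.51 ± 0.08, edgeR adjusted p = 5.6e-07). The separation was complete for all 3. SLC1A4 (0.94 ± 0.09), a transporter of neutral amino acids, CTH (0.89 ± 0.11), which makes cysteine, SLC7A5 (0.86 ± 0.09), which carries large neutral amino acids, and STC2 (0.73 ± 0.11), a secreted glycoprotein, were also called. The transcription factors of the pathway were not called. ATF4 itself had a log2 change of −0.33 ± 0.10 (edgeR adjusted p = 0.090) and lay lower in all 5 AII libraries, at 232 to 298 CPM against 312 to 358 CPM. DDIT3, the stress factor CHOP, measured 2.43 to 4.33 CPM against 4.91 to 6.65 CPM (−0.73 ± 0.17, edgeR adjusted p = 0.036). ASNS and CHAC1 had changes of 0.39 ± 0.26 and 0.09 ± 0.24. Their levels over the 9 libraries were 1.44 to 4.12 and 0.732 to 1.19 CPM, where the abundance minimum excluded a call. CBS missed the threshold (edgeR adjusted p = 0.036), while CBSL, a near-identical copy of CBS, was called. Reads of the pair could be split between them, so both values are uncertain. The list had 12 called genes by DESeq2 (11 higher, and DDIT3 lower) and 12, all higher, with title runs as a block, 6 with all labelled libraries and 3 with AII 6 h replicate 6.

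Outside the list, MTHFD1L, the mitochondrial folate enzyme that follows serine use (1.14 ± 0.08), BCAT1, which transaminates branched-chain amino acids (0.82 ± 0.10), and SLC38A1, a glutamine carrier (0.64 ± 0.11), were called; they were named after their values were seen. Of 20 cytosolic aminoacyl-tRNA synthetases, which load amino acids onto tRNA, MARS1 and YARS1 were called (0.527% higher of all genes tested), and the median of the list was 0.18. MARS1 (methionine) measured 169 to 212 CPM under AII against 94.1 to 116 CPM (log2 0.84 ± 0.09), and YARS1 (tyrosine) 258 to 299 CPM against 138 to 184 CPM (0.76 ± 0.09). The count was 3 with all labelled libraries and 4 with title runs as a block. The core letters of the amino acid response element, TGATGNAA, were found in 9.65% of the windows of higher genes, in 9 genes (ASB11, BCAT1, CREB3L2, MARS1, MTHFD1L, OSTN, SLC1A4, SLC38A1 and SPRED2), and in 2.01% of all windows. Of the 7 called genes of the ATF4 list 6 had a window, and SLC1A4 alone held the letters, in 1 of 7 windows. These shares were not tested. The MARS1 promoter is given as the example, with the match, on the opposite strand, in capitals.
MARS1 promoter, chr12:57487818-57488117, plus strand: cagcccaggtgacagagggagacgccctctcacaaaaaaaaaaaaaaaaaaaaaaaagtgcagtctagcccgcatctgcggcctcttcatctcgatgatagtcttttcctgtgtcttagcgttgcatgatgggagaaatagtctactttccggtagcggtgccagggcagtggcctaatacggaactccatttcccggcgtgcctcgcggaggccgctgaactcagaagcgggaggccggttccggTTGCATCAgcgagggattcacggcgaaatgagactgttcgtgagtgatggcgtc

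Glucose uptake and the first step of glycolysis were represented by SLC2A1 and HK2. Of 27 tested genes of the hypoxia and glycolysis list, 3 were called higher and 0 lower (0.527% higher of all genes tested), all 27 had a log2 change above 0, and the median was 0.43. Over all genes tested 7745 of 16878 were above 0. SLC2A1, the glucose transporter of most cells, measured 115, 118, 148, 119 and 127 CPM under AII and 70.8, 67.4, 57.1 and 47.5 CPM in the controls (2.07-fold, edgeR adjusted p = 0.00037). HK2, a hexokinase, had 99.4 to 115 CPM against 50.7 to 62.5 CPM (log2 0.93 ± 0.08, edgeR adjusted p = 4.3e-05). NDRG1, a hypoxia-induced gene, had 162 to 223 CPM against 86.1 to 123 CPM (0.79 ± 0.13), and its call was lost in 10 of 24 alternatives. These included leaving out AII 6 h replicate 3, 4 or 5 or control 6 h replicate 4, 5 or 6, and adding control 6 h replicates 1 and 2, where the change was 0.21. HK2 also lost its call with those 2 controls. Of the 27 genes 14 lay above every control and 11 had an edgeR adjusted p under 0.05, all 11 of them higher. Over all 16878 genes tested 904 lay above every control and 336 were higher at that adjusted p. SLC2A3, another glucose transporter, was among the 11 but not called, at 7.92 to 10.8 CPM against 1.82 to 5.16 CPM, while VEGFA (0.32 ± 0.11) and ADM (0.07 ± 0.12) overlapped with the controls. Control 6 h replicate 6 was low in several of these genes, with SLC2A3 at 1.82 CPM against 4.798 to 5.16 CPM in the other controls and LDHA, lactate dehydrogenase, at 438 against 674 to 887 CPM. Without it the median was 0.39 and 4 genes were called. With control 6 h replicates 1 and 2, where SLC2A3 stood at 16.6 and 12.7 CPM, the median was 0.16, and with all labelled libraries 0.21. EPAS1, which encodes a hypoxia-inducible factor and is outside the list, was called (1.07 ± 0.12). The list count was 6 by DESeq2 and with title runs as a block, and 1 with all labelled libraries.

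Few early-response genes passed the test after 6 h. Of 27 tested immediate-early and EGR genes, only NAB2, a corepressor of the EGR factors, was called by edgeR (2 by DESeq2). Of all genes tested 0.527% were called higher by edgeR, and the median of the list was 0.15. NAB2 (chromosome 12, 57089114 to 57095476) had 18.8, 20.1, 17.5, 19.2 and 15.1 CPM under AII and 8.15, 6.93, 5.91 and 5.69 CPM in the controls (log2 1.44 ± 0.13, edgeR adjusted p = 5.7e-05). EGR1, the factor that NAB2 restrains, measured 6.13 to 8.43 CPM against 4.49 to 6.75 CPM, so that the groups overlapped (0.18 ± 0.15, edgeR adjusted p = 0.57). ARC had 6.25 to 9.28 CPM against 5.01 to 6.5 CPM (0.43 ± 0.14, edgeR adjusted p = 0.14). FOS was 0.65 ± 0.17 and JUN −0.28, neither called. FOS had 2.699 to 3.76 CPM against 1.79 to 2.58 CPM, and EGR3 2.59 to 3.9967 against 1.245 to 1.86 CPM. Both lay above the controls in all AII libraries, but the abundance minimum excluded a call. ATF3 (65.1 to 76.8 against 93.3 to 102 CPM) and JUND (133 to 170 against 179 to 222 CPM) lay below the controls, uncalled. Left-out control 6 h replicates 1 and 2 held 5.88 and 4.95 CPM of FOS. In the list 2 genes were higher and 2 lower at an edgeR adjusted p under 0.05. ARC, EGR1 and EGR3 (18.016 CPM) were high in AII 6 h replicate 6, and ARC served to leave that library out. The values without it are therefore no independent reading of these genes. With it the log2 change of ARC was 1.89 (edgeR adjusted p = 0.29) and that of EGR1 1.01 (edgeR adjusted p = 0.42). The calls of NAB2, ETV5 and SPRED2 were lost when either set of left-out libraries was added, where AII 6 h replicate 6 held 70.9 CPM of NAB2.

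Inhibitors of the MAP kinase pathway and PEA3 factors gave 3 called genes of 19 tested (0.527% higher of all genes tested), with a median of 0.38, which was 0.18 with control 6 h replicates 1 and 2. Beside ETV5 these were SPRED2, at 24.6 to 29 CPM against 14.5 to 17.4 CPM (log2 0.74 ± 0.09, edgeR adjusted p = 0.00045), and SPRY1, at 20.4 to 25.4 CPM against 11.2 to 16.7 CPM (0.68 ± 0.11, edgeR adjusted p = 0.0071). Both restrain signalling from receptors to RAS and ERK. The call of SPRY1 held in only 12 of 24 alternatives and was lost without any 1 of the 5 AII libraries or without control 6 h replicate 4 or 5. ETV4 and ETV1, the other PEA3 factors, passed the p and fold criteria at levels under 5 CPM: ETV4 had 0.925 to 1.53 CPM against 0 to 0.133 CPM and ETV1 0.810 to 1.56 CPM against 0.155 to 0.356 CPM (edgeR adjusted p = 0.00037 and 0.0044). The phosphatases DUSP6 (0.39 ± 0.32) and DUSP1 (−0.10) were not called, and DUSP4 (0.62 ± 0.11, edgeR adjusted p = 0.010) missed the threshold. DUSP6 stood at 0.264 to 0.877 CPM, where the abundance minimum excluded a call. With either set of left-out libraries the list had 0 called genes by edgeR.

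KCNA1 and MMP10 were among the genes above control that fell under the abundance minimum. KCNA1, a voltage-gated potassium channel of neurons, was read by 59, 55, 56, 45 and 35 counts under AII and by 3, 3, 0 and 2 counts in the controls. Its log2 change of 4.6 ± 0.45 (edgeR adjusted p = 0.00013) is the largest of all genes tested, and rests on these few control counts. MMP10, the protease stromelysin-2, had 2.80, 2.17, 3.66, 3.11 and 2.24 CPM under AII against 0.267 to 0.633 CPM (2.88 ± 0.29, edgeR adjusted p = 0.00016). In AII 6 h replicate 6 the levels were 21.98 CPM for KCNA1 and 18.6 CPM for MMP10. Without it no AII library exceeded 3.07 CPM of KCNA1 or 3.67 CPM of MMP10. In all, 16 higher genes and 1 lower gene passed the p and fold criteria under the abundance minimum.

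COL12A1, a fibril-associated collagen (chromosome 6, 75084326 to 75206053), had 27.2, 26, 23.7, 22.8 and 20.6 CPM under AII and 4.74, 7.91, 7.39 and 7.91 CPM in the controls (log2 1.78 ± 0.15, edgeR adjusted p = 3.3e-05). CCDC80, a secreted matrix protein (1.35 ± 0.12), ANXA3, a calcium-dependent membrane-binding annexin (1.38 ± 0.16), and THRB, a thyroid hormone receptor (1.32 ± 0.15), were also called. Tenascin C (TNC), fibrillin 2 (FBN2) and the caveolar genes CAV1 and CAVIN1, named after their values were seen, had changes of 0.73 to 0.87. COL3A1, a fibrillar collagen, had 16.6 to 21.2 CPM against 8.62 to 11.1 CPM (0.87 ± 0.11, edgeR adjusted p = 0.0012). It is also one of 13 genes taken as markers of other cell types, of which 2 could be tested and 5 to 7 were at 0 counts in each library. PTPRC of blood cells, PECAM1 of endothelium and ALB of liver were among those too low to test. Without COL3A1 the summed level of the markers was 12.2 to 16.2 CPM under AII and 13.1 to 15.3 CPM in control. Most of it was COL1A1, another collagen, at 11.4 to 15.4 and 11.9 to 14.1 CPM. The sum therefore says little about the other markers. Among 13 tested genes of the plasminogen system and metalloproteases ADAMTS1, a secreted protease, was called (0.63 ± 0.08, edgeR adjusted p = 0.00076), but not with title runs as a block or with control 6 h replicates 1 and 2, and the median was 0.17. Among 25 cytoskeletal MRTF-SRF targets TPM4, a tropomyosin, was called at 405 to 481 CPM against 247 to 312 CPM (0.65 ± 0.09, edgeR adjusted p = 0.0014). The median of the 25 was 0.16, and the count was 2 by DESeq2 and with all labelled libraries and 3 with the block. For both lists the share to set beside the count is the 0.527% called higher of all genes tested. The calls of CCDC80, THRB and COL3A1 were lost with either set of left-out libraries, and that of ANXA3 with the controls. In control 6 h replicates 1 and 2 CCDC80 measured 14.4 and 12.2 CPM.

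The receptor itself was read as AGTR1, whose counts join the plasmid and the endogenous gene and cannot be told apart. It was abundant in every library, at 5709.5, 5920.1, 6059, 5963 and 5522 CPM under AII and 4266, 4105, 4425 and 4020.3 CPM in the controls. The AII libraries were all above the controls by a factor of 1.39 (log2 0.47 ± 0.10, edgeR adjusted p = 0.028), which is under the fold minimum. The left-out controls, scaled with other factors, held 6522 and 5436 CPM. The first was above all AII libraries and the second close to the lowest of them, so that the groups overlap as labelled. Of the 11 tested genes of the angiotensin system none was called by edgeR or DESeq2, 2 had an unadjusted p under 0.05 and the median was 0.02. Over all genes tested 0.533% were called by edgeR and 2902 of 16878 had an unadjusted p under 0.05. The genes of Gq, calcium and NFAT signalling also gave 0 calls by edgeR and DESeq2 among 24 tested, with 6 at an unadjusted p under 0.05 and a median of 0.06. Examples are RGS2, a brake on Gq (0.37 ± 0.12), and RCAN1, a calcineurin inhibitor (0.18 ± 0.07). In the EGF family 0 of 10 tested genes were called by edgeR or DESeq2, and 2 had an unadjusted p under 0.05. EGFR measured 23 to 29.6 CPM under AII against 16.2 to 22.4 CPM (0.46 ± 0.11, edgeR adjusted p = 0.050), and HBEGF, a ligand of the receptor, 2.70 to 3.49 CPM against 3.16 to 3.59 CPM (−0.18 ± 0.14). No gene was called by edgeR or DESeq2 among the YAP-TEAD targets (19 tested, median 0.26, 6 at an unadjusted p under 0.05) or the genes of cholesterol synthesis (22 tested, median −0.01, 10 at that level). The same held for ribosome biogenesis (15 tested, median −0.05, 1 at that level) and the Kv1 to Kv4 channels (12 tested, median 0.29, 4 at that level). Secretory peptides had CGA as their only call among 5 tested (0.527% higher of all genes tested), with a median of 0.95.

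**Figure D3:**
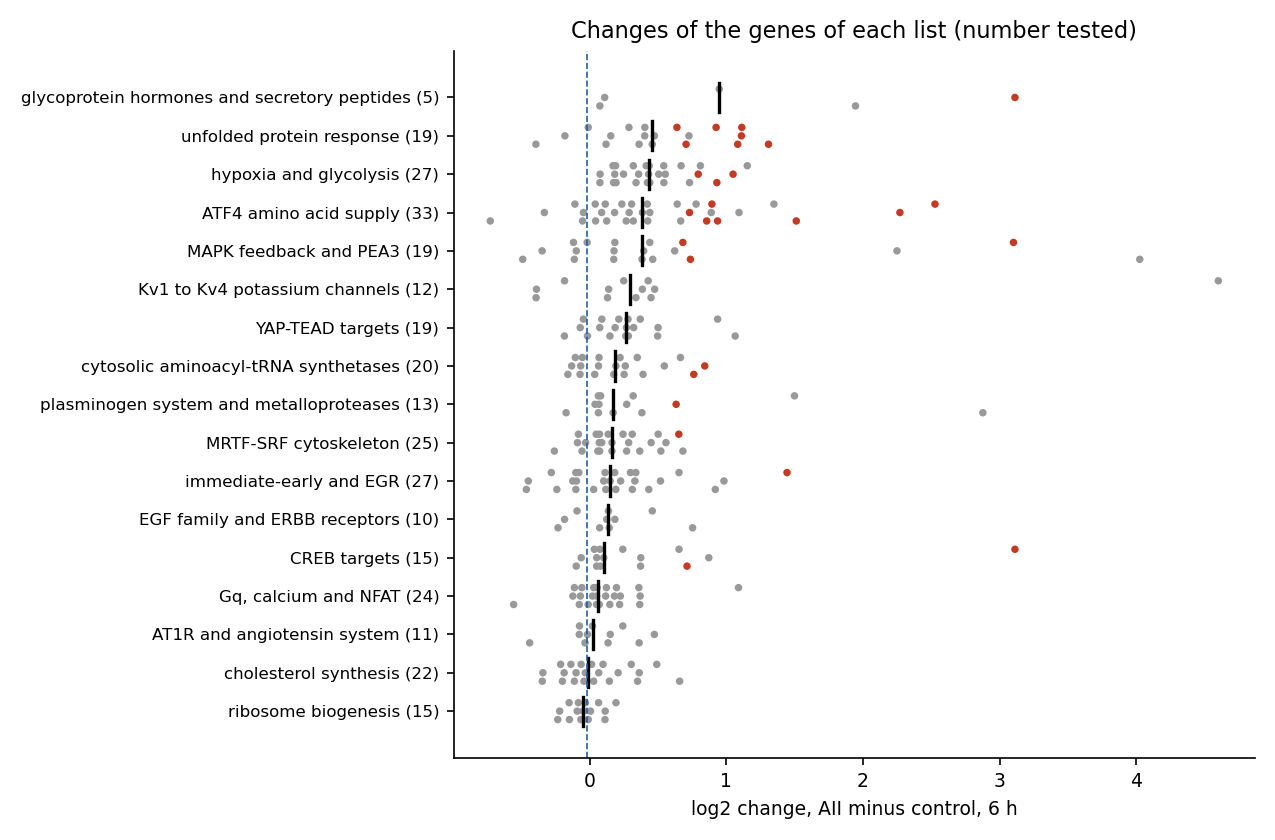
Each point is a tested gene of a list, placed by its log2 change (AII minus control, 6 h), red where called; black bars are list medians, the dashed line is the median of all genes tested (−0.02), and list names carry the number tested. The unfolded protein response (median 0.46), hypoxia and glycolysis (0.43) and ATF4 lists (0.39) lie to the right of the line and ribosome biogenesis (−0.05) on it or left of it.

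The only called gene that was lower under AII was AC022075.1, a long non-coding RNA on chromosome 12. It measured 12.9, 11.8, 9.23, 11.5 and 10.3 CPM under AII and 19, 18.5, 19.6 and 19.6 CPM in the controls, 0.580 of the control level (log2 −0.78 ± 0.10, edgeR adjusted p = 0.0011). Its call was lost with either set of left-out libraries, and since the strand setting of the counting is not given, reads of an overlapping gene cannot be told apart from its own. ICOSLG and FP565260.3, a near-identical copy, were both called higher and are uncertain for that reason.

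At 24 h no gene passed the test. With separate controls (5 AII libraries, replicate 4 being left out as near-identical to a control 6 h library, and 6 control libraries) 0 of 18614 tested genes were called by edgeR (0%), 0 reached an adjusted p under 0.05 and 209 an unadjusted p under 0.05 (DESeq2 was not run here). The 89 genes higher at 6 h had log2 changes of −0.37 to 0.41 at 24 h, with a median of 0.05, and 57 of them were above 0. LBH stood at 12.5 to 24.2 CPM with AII and at 9.25 to 23.2 CPM without it after 24 h, CGA at 1.02 to 1.92 and 0.963 to 1.72 CPM, and HYOU1 at 72.9 to 103 and 80.0 to 117 CPM, so that all 3 overlapped. With title runs as a block, 0 genes were called by edgeR, 0 had an adjusted p under 0.05 and 683 an unadjusted p under 0.05. In that fit the 89 genes ranged from −0.30 to 0.36 with a median of 0.04. SLC7A11, at 0.36 ± 0.13 the highest of them, measured 11.3 to 18.5 CPM with AII and 5.44 to 15 CPM without it, and COL12A1 (0.35 ± 0.12) 10.9 to 17.4 and 7.88 to 12.5 CPM. In both genes the groups overlapped, while within each of the 4 title runs the AII libraries lay above the controls, and neither was called (edgeR adjusted p = 1.00). The difference between the 2 times was itself tested as an interaction. It was called in 18 genes (0.0967% of 18614), all with the smaller change at 24 h and all among the 90. The test holds the 6 h libraries by which the 90 were chosen, so this direction and overlap are a description only. The 18 genes comprise LBH (−3.02 ± 0.29), ETV5 (−3.04 ± 0.31), CGA (−2.85 ± 0.33), OSTN, SLC6A9, SLC7A11, COL12A1, PSAT1, HYOU1, HSPA5, PDIA4, SEC24D, SLC1A4, MTHFD1L, TRIM5, GALNT10, CDK14 and GRB10. NAB2 (−1.21 ± 0.22, edgeR adjusted p = 0.013) and SLC2A1 (−1.42 ± 0.26, edgeR adjusted p = 0.015) missed the threshold. The count of 18 was 11 without AII 6 h replicate 1 or control 6 h replicate 3, and 32 without control 24 h replicate 6. With title runs as a block it was 36, of which 35 had the smaller change at 24 h and 16 were among the 18.

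**Figure D4:**
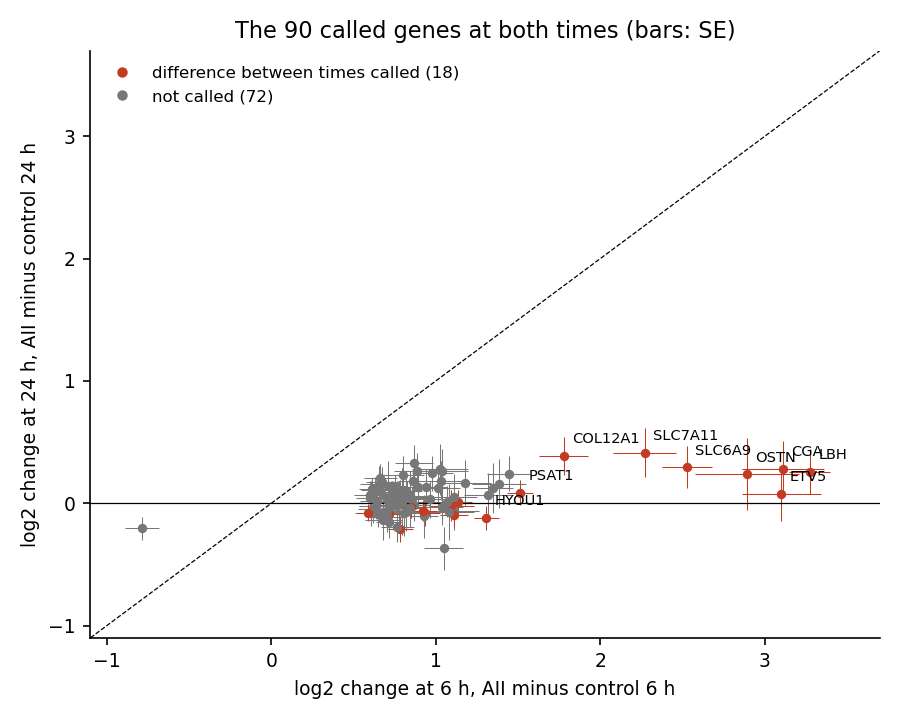
The 90 called genes are placed by their log2 change at 6 h (x axis) and at 24 h (y axis), each against the controls of its own time, with SE bars; the dashed line marks equal changes and the 18 genes whose change differed between the times are red. All points of higher genes lie below the dashed line, near 0 on the y axis, with LBH, CGA, ETV5 and OSTN farthest right.

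EGF for 6 h was compared with AII by a direct test in 1 fit of 13 samples (4 of EGF 6 h, 1 of them the sum of 2 near-identical libraries, with EGF 6 h replicate 1 left out as near-identical to an AII + EGF library). Of 17257 genes tested, 184 differed between AII and EGF (1.07%), 62 higher and 122 lower under AII. Among the 90 genes, 24 were higher under AII than under EGF, 14 were lower and 52 were not called, which does not show that these respond alike. OSTN had the largest difference among those higher under AII. It measured 8.11 ± 2.16 CPM under AII (SD, n = 5) and 0.655 CPM under EGF (log2 difference 3.66 ± 0.33, edgeR adjusted p = 1.0e-05), CGA 11.5 ± 2.65 and 2.02 CPM (2.45 ± 0.24), SLC6A9 20.3 ± 1.99 and 4.73 CPM (2.08 ± 0.15), and LBH 87.5 ± 6.33 and 33.4 CPM (1.36 ± 0.10). The chaperones HYOU1 (1.01 ± 0.08), HSPA5 (0.86 ± 0.08), PDIA4 (0.85 ± 0.08) and HSP90B1 were likewise higher under AII. Among those lower under AII, ETV5 had the largest difference. It reached 31.8 CPM under EGF against 7.88 CPM under AII (−2.05 ± 0.16, edgeR adjusted p = 1.9e-06), NAB2 41 against 18.2 CPM (−1.20 ± 0.11) and TNFRSF12A, a receptor of the TNF family, 24.2 against 9.02 CPM (−1.45 ± 0.10). For EGR1 the mean was 93.6 CPM under EGF and 6.94 CPM under AII (−3.78 ± 0.22, edgeR adjusted p = 4.0e-07). AII 6 h replicate 6, left out on expression values, held 39.6 CPM of EGR1, 49.1 CPM of ETV5 and 70.9 CPM of NAB2. The differences of these genes from EGF are therefore no independent reading. KCNA1 did not pass the test of the difference (−0.12 ± 0.24), its means being 2.48 CPM under AII and 2.63 CPM under EGF. HK2 and SLC7A5 were not called either, with differences of −0.17 and 0.02. The changes against control share the control libraries and are given side by side only. Over the 89 higher genes the median was 0.82 under AII, by which they were chosen, and 0.66 under EGF. The values were 3.28 under AII and 1.91 under EGF for LBH, 1.31 and 0.29 for HYOU1, 1.51 and 0.37 for PSAT1, and 1.05 and 1.47 for SLC2A1. With all libraries as labelled the count of 184 was 17.

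**Figure D5:**
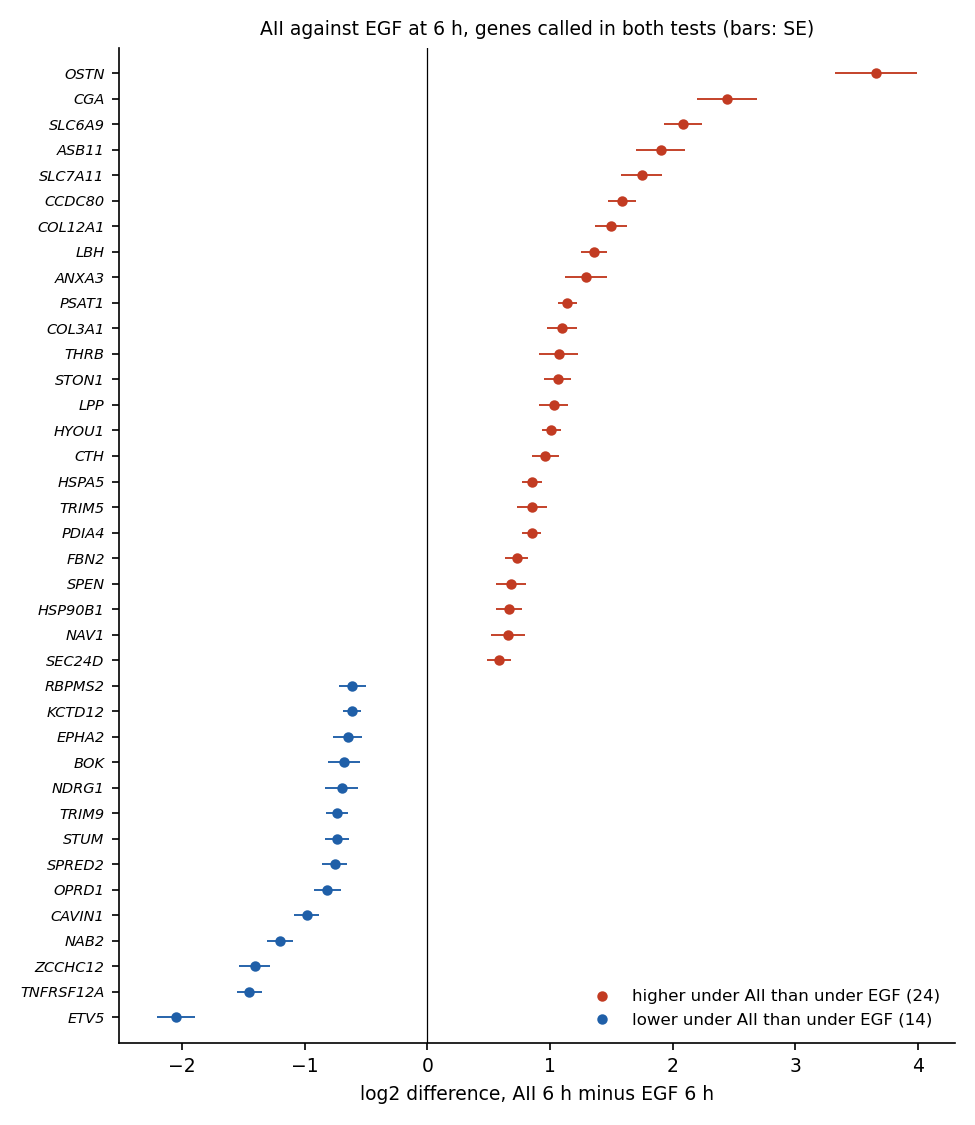
The 38 genes called both in AII 6 h against control 6 h and in AII 6 h against EGF 6 h are placed by the log2 difference AII minus EGF (x axis) with SE bars. The 24 red genes are higher under AII, up to OSTN at 3.66, and the 14 blue genes higher under EGF, down to ETV5 at −2.05.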

How the data were processed

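Per the labels and the study's methods, total RNA libraries were aligned to hg38 with HISAT2 2.1.0, and the authors counted fragments per gene with featureCounts on an Ensembl annotation. The deposited table holds these raw counts for 60610 genes in 48 libraries. The strand setting and the treatment of multi-mapping reads were not given in the sources used here.

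Genes were filtered with filterByExpr, normalised by TMM and tested with the quasi-likelihood F-test of edgeR 4.0.16 in R 4.3.3, in 1 fit per comparison, and p-values were adjusted over all genes tested. The fits held 9 libraries (6 h), 20 libraries (both times, with the interaction) and 13 samples (with EGF 6 h). Errors of log2 changes are standard errors. DESeq2 1.42.0 was an alternative. The code was tested on simulated data.

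The members, gene lists and left-out libraries were chosen with earlier results of these data known. Genes were named by a rule: KCNA1, CGA and MMP10, the 12 largest rises and the falls among called genes, the 3 largest called per list, and AGTR1, EGFR, HBEGF, EGR1 and ARC. Other named genes are list members given as examples or were chosen after their values were seen. Promoters and positions were RefSeq entries on GRCh38.p14, matched by symbol and chromosome.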

Additional observations from a re-analysis of the deposited data

Results flagged for a closer look

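Among 70 groups of 4 or 5 libraries examined for a single library apart from the rest by Dixon's test, 5 had one, and chance gives about 1 in 20. SLC6A9 was 16.847 CPM in AII 6 h replicate 5, against 20.658 to 21.81 CPM in the other AII libraries. HBEGF was 3.486 CPM in AII 6 h replicate 2, against 2.6986 to 2.8597 CPM. MMP10 was 0.63331 CPM in control 6 h replicate 5, against 0.26657 to 0.31124 CPM, and COL12A1 was 4.7444 CPM in control 6 h replicate 3, against 7.3887 to 7.9145 CPM. EGR1 was 4.4908 CPM in control 6 h replicate 6, against 6.597 to 6.7531 CPM.

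The response to AII differed between the times by the interaction test of edgeR in 10 of the named genes. The log2 change at 24 h minus that at 6 h was −3.02311 for LBH, −3.03629 for ETV5, −2.84824 for CGA and −2.65899 for OSTN. It was −2.24264 for SLC6A9, −1.87222 for SLC7A11 and −1.40351 for COL12A1. For PSAT1, HYOU1 and HSPA5 it was −1.43337, −1.43886 and −1.21307. Each of these genes was higher in all 5 AII 6 h libraries than in all 4 controls. The called genes were all apart in this way, and the calls rest on the same 6 h libraries as the interaction test, so this is a description only.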

How the results depend on the processing

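The 90 genes called at 6 h became 152 without a filter on low counts (135 higher, 17 lower), 142 at an adjusted p under 0.05 and 145 by DESeq2, which held all 90. The count was 42 with AII 6 h replicate 6, 35 with control 6 h replicates 1 and 2 and 36 with all labelled libraries, of which 40, 30 and 29 were among the 90. Leaving out 1 library at a time gave 66 to 85. The other alternatives (RLE factors, 1 fit over all 8 groups, the study's filter, no fold or abundance minimum, genes called by both tools, title runs as a block or runs 4 and 5 only, AII replicates 1 and 2 summed) gave 76 to 111. At 24 h the count was 0 in every alternative run with edgeR, title runs as a block among them. The interaction count of 18 became 31 at an adjusted p under 0.05 and 36 with title runs as a block (16 shared), and was 11 to 32 without 1 library, lowest without AII 6 h replicate 1 or control 6 h replicate 3 and highest without control 24 h replicate 6. The 184 genes that differed from EGF became 339 without a filter (60 higher under AII, 279 lower, against 62 and 122) and 17 with all labelled libraries. The log2 change of HBEGF turned to 0.01593 with all labelled libraries and 0.05065 with AII 6 h replicate 6, and that of EGR1 to −0.09183 with control 6 h replicates 1 and 2. With AII 6 h replicate 6 EGR1 moved from 0.18 to 1.01 and ARC from 0.43 to 1.89, neither called. The cause of these shifts was not tested. No paired analysis was possible because the replicate numbers follow the order of deposition and pair no libraries, and the title run, which both groups share in part, served as the block. Depth limits the genes under 5 CPM, such as KCNA1. The sum of replicates 1 and 2, the block at 24 h and against EGF, and the list counts by DESeq2, with title runs as a block, without control 6 h replicate 6 and with either set of left-out libraries, were chosen after seeing the data.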
